A study of Drosophila melanogaster with 3 samples.

Results

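BaitA is an insulator binding site on chromosome arm 3R of Drosophila melanogaster, at 91997 to 92920, within the first 100 kb of the arm's sequence on the side of the centromere. Its contacts were mapped by circular chromosome conformation capture (4C) on 1 of the 3 tiling arrays of the series, chosen by its label. All 2157868 probes of that array were used, and the other 2 arrays served only as reference. The cells were S2-DRSC, an embryonic Drosophila cell line grown without any treatment named in the labels, and all 3 arrays used the same line. Coordinates are those of the files, whose arm lengths are the ones of genome Release 5. BaitB, a reference bait, occupies 8485115 to 8485894 of 2L. The other, BaitC, occupies 384440 to 385252 of 3R.

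In 4C, cross-linked chromatin is cut with a restriction enzyme and its ends are ligated. Fragments that were neighbours of the bait in the nucleus are then recovered by inverse PCR with primers that point out of the bait. Insulators are DNA elements bound by proteins such as CTCF, Su(Hw) and BEAF-32 in the fly. They are known for limiting the reach of enhancers, for marking borders between chromatin domains and for taking part in loops between distant sites. DNA next to a bait on the same chromosome is captured most often in any 4C assay, and the blocks of heterochromatin around the centromeres of Drosophila chromosomes tend to cluster in the nucleus. The labels do not name the protein bound at BaitA.

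Each value is the log2 ratio of the 4C product over DpnII-cut, unligated DNA at a probe, minus the median of the array. There was 1 array for each bait, so no difference has a replicate check, no test was run, and every SD is a spread over probes or bins within an array. The number of arrays limits the precision. Probes had an SD of 2.45 for BaitA, 2.50 for BaitB and 1.50 for BaitC, so a fixed height is rarer in the BaitC array. Values are those of the BaitA array unless another is named, and a value for BaitB or BaitC is that of the same place in its array. Per the file headers, BaitA was hybridised to a slide that had been used for BaitB just before, and what carry-over adds to a value was not tested. BaitC lies 292 kb from BaitA, inside the stretch described next, so BaitB is the cleaner reference on 3R. A DNA ratio does not report expression, so the identity of the cell line could not be checked from these values.

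The bait and its surroundings stood far above the array. Its own 17 probes had a mean of 8.34 ± 1.05 (SD over probes) and ranged from 5.96 to 9.81. The same probes had 2.91 for BaitB and 0.50 for BaitC. Within 20 kb of the bait, 483 probes averaged 8.04 ± 0.76, with none under 4.58, against -0.65 for BaitB and 1.65 for BaitC. The bait is thus at the same height as its 20 kb neighbourhood, with no step at its own borders.

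A reference level of 2.56 was taken as the 99th percentile of 10 kb bins on 2L, 2R, 3L and X, the arms that do not carry the bait. Of the 60 bins from the start of the 3R sequence to 600 kb, 56 were above this level, against 2.35% of all bins in the array. The end at 600 kb was itself set by this level, so that count only describes the stretch. The mean of the 60 bins was 4.74 ± 1.87 (SD over bins), with 0.23 ± 0.91 for BaitB. The BaitB array was the higher in 0 of the 60 bins. The raised stretch has only 1 edge. Towards the centromere all 9 bins up to the first probe, 92.5 kb from the bait, were above the level, so the stretch runs off the end of the assembled arm. Away from the centromere it ended 508 kb from the bait, at the start of the first 5 consecutive bins below the level.

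The outer edge is a soft one, and its place depends on how it is defined. The mean was 2.28 ± 0.31 over the 10 bins 500 to 600 kb away, already near the level, and 2.09 ± 1.05 at 600 to 800 kb. A lower level, the 95th percentile of the same bins, moved the edge to 1178 kb from the bait, and a level taken from 3R beyond 10 Mb moved it to 1468 kb. Asking for 10 consecutive low bins in place of 5 moved it to 788 kb. Beyond the edge, 21 of 2724 bins of 3R were above the level, a smaller share than the 2.35% of all bins in the array. The farthest of the 21 lay at 1660001 to 1670000, with a mean of 2.94.

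**Figure D1:**
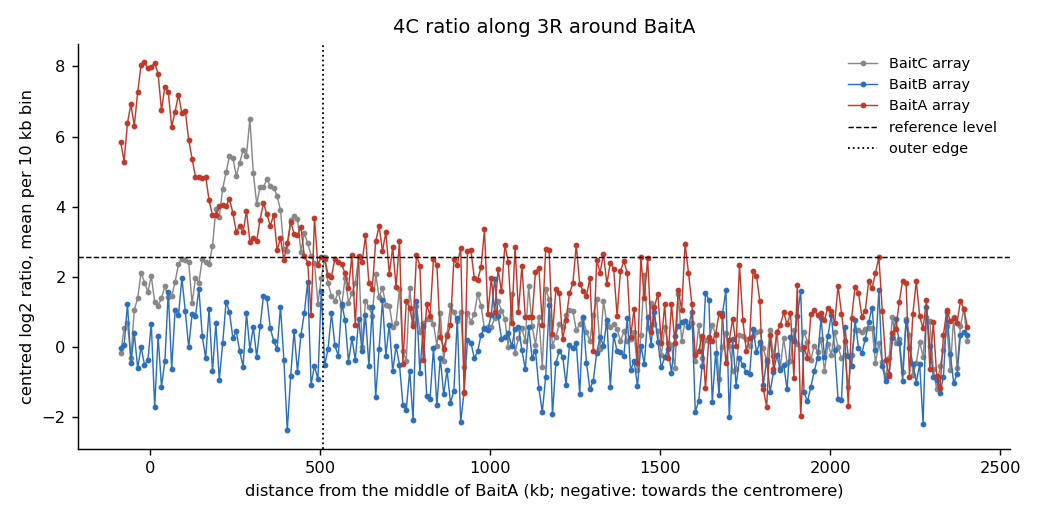
Mean centred log2 ratio per 10 kb bin along the first part of 3R, against distance from the middle of BaitA in kb, for the 3 arrays; the dashed line is the reference level of 2.56 and the dotted line the outer edge at 508 kb. The BaitA array falls from about 8 beside the bait towards the level, the BaitC array peaks at its own bait, and the BaitB array stays near 0.

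The fall with distance had a plateau, a steep part and a long shoulder. The 4 bins within 20 kb averaged 8.04 ± 0.09 (SD over bins). On the far side the mean was 7.01 ± 0.49 at 20 to 100 kb, 5.54 ± 0.80 at 100 to 150 kb and 4.27 ± 0.54 at 150 to 200 kb. After this the fall slowed. It was 3.70 ± 0.42 at 200 to 300 kb, 3.32 ± 0.51 at 300 to 400 kb and 2.83 ± 0.82 at 400 to 500 kb. In a running mean of 5 bins, the first 4 log2 units below the bait's neighbourhood were lost at 52.5, 113, 143 and 193 kb. The fifth unit was lost only at 383 kb and the sixth at 583 kb. The shoulder from 200 to 400 kb overlaps the surroundings of BaitC, where BaitC had 5.17 and 4.31 in the same classes while BaitB had 0.23 and 0.51. At BaitC itself the 15 probes averaged 3.70 ± 0.50 in the BaitA array, where the 673 probes within 20 kb of it averaged 3.34 ± 1.30. The bin that holds BaitC averaged 3.00 and the bin before it 3.88.

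The shape of the fall is also visible in single probes. A probe was counted as raised above 4.15, the 95th percentile of probes on the arms without the bait, and 4.95% of all probes of the array are raised by this rule. All 466 probes of the bins within 20 kb of BaitA were raised, and 97.8% of those from 20 to 100 kb. The share was 85.0% from 100 to 150 kb, 55.4% from 150 to 200 kb, 39.2% from 200 to 300 kb and 17.9% from 500 to 600 kb. It was 14.0% between 1 and 1.5 Mb, 6.03% between 2 and 3 Mb and 2.75% beyond 10 Mb. In the BaitB array the share stayed between 1.50% and 10.8% over the same classes. Close to the bait almost every probe was raised, while farther out raised and low probes alternated. From 300 to 508 kb, 108 of 202 windows of 1 kb were above 3.21, the 95th percentile of such windows on the arms without the bait, and 7 were below the array median.

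The 2 sides of the bait were alike at first and then differed. The interval from 10 to 20 kb averaged 8.12 towards the centromere and 8.05 away from it. From 70 to 80 kb the centromere side averaged 5.58 and the far side 6.98, and from 80 to 92 kb the values were 5.65 and 6.92. Over 9 intervals the far side was higher in 5, and far minus centromere side ranged from -0.77 to 1.40. The intervals hold 46 to 216 probes. From 30 to 40 kb on the far side, overlapping cpx, there was a hole in the plateau: 86.5% of the probes were raised, with an SD of 2.74. A lesser dip lay 40 to 50 kb towards the centromere, with 93.2% raised and an SD of 1.96. Over both sides together, the lowest 1 kb window between 20 and 50 kb was at -0.05.

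**Figure D2:**
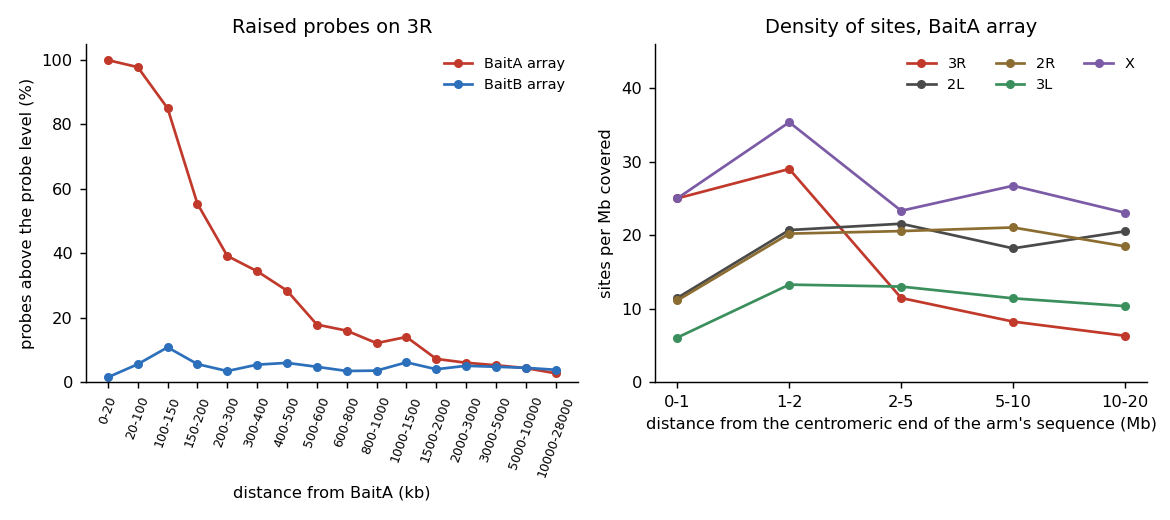
Left, the percentage of probes of 3R above the probe level of 4.15 by distance from BaitA in kb, in the BaitA and BaitB arrays; right, sites per Mb covered by bins in the BaitA array on 5 arms by distance from the centromeric end of each arm's sequence. The raised share of the BaitA array falls from all probes to 2.75%, and on 3R, where the first class starts at the outer edge, the density of sites falls from 29.0 to 6.31 per Mb after the first 2 Mb. The first class is the lowest on 2L, 2R and 3L, and from 1 Mb on 2L goes from 20.7 to 20.5 and X from 35.4 to 23.0.

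The stretch holds 87 genes of the deposited peak-to-feature tables, 84 of them with at least 5 probes inside their span. These tables list only genes paired with a peak of some bait, so they are not all genes of the region. Of the 84, 76 had a span mean above the level of 2.56, against 7.93% of the 12042 genes of the tables with as many probes. The same level in the same array bounded the stretch, and peaks of BaitA bring genes into the tables. The count of 76 therefore only describes the stretch. The median of the 84 genes was 5.45, with 0.08 for BaitB and 2.40 for BaitC, and the median of all genes in the BaitA array was 0.17. The 36 genes within 100 kb of the bait had a median of 7.42, and the lowest of them was at 5.45.

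The 12 highest genes all lay within 31.3 kb of the bait. BaitA overlaps CG1092 (3R, 92675 to 93935), whose 23 probes averaged 8.33 ± 0.66 (SD over probes) against 1.00 for BaitB and 2.06 for BaitC. It was not the highest: CG9766 (95286 to 95995), 2.37 kb beyond the bait, averaged 8.59 ± 0.51, with -2.51 for BaitB. A group of Tweedle genes, which encode cuticle proteins of the larva, lies on the centromere side, and all 3 of those among the highest 12 were close in value. TwdlG (74572 to 75643) averaged 8.44, TwdlF (72782 to 73906) 7.98 and TwdlV (80501 to 81316) 7.83, with 0.91, -0.43 and -1.08 for BaitB. Gel (61826 to 66659), the gene of the actin-severing protein gelsolin, averaged 8.15 over 88 probes and spanned the longest stretch among these 12.

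The other genes of this group have varied roles. Or82a (82693 to 84166), an odorant receptor gene, averaged 8.09, and CG14644 (77699 to 78697) averaged 8.10. The neprilysin-like peptidase gene Nepl11 (117934 to 120369), on the far side of the bait, averaged 8.02. The gene of the DEAD-box RNA helicase abstrakt, abs (58850 to 60710), averaged 7.91, with -2.34 for BaitB. CG14638 (70292 to 71205) averaged 8.03 and CG14642 (66990 to 68417) 7.83. All 12 span means fell within 0.77 of each other.

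Low genes were interspersed in the outer part of the stretch. The lowest was CG32945 (403814 to 404315), 311 kb from the bait, whose 9 probes averaged 0.38 ± 1.97 against 3.30 for BaitB and 5.76 for BaitC. CG14652 (363455 to 364151) averaged 1.38 ± 0.24 over 10 probes, with -2.82 for BaitB and 4.90 for BaitC. MED31 (468122 to 468969), a subunit gene of the Mediator complex, averaged 1.51, and CG41464 (281973 to 284770) averaged 1.91. Other genes of the outer part were higher. CG9783 (319125 to 323168) averaged 4.05, and Mur82C (367257 to 368937), a mucin-related gene just past CG14652, averaged 3.99. These 2 were chosen after their values were seen.

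Of the 3 largest drops between adjacent bins, the deepest lay at the border of 560 kb, where the bin mean went from 2.40 to 0.92. This was a single low bin: the next, at 570001 to 580000, had 3.67, a larger change than any drop. The bin mean went from 1.85 to -1.08 for BaitB and from 2.96 to 2.60 for BaitC. The gene on the near side is Nep2 (545674 to 557284), a neprilysin peptidase gene with a mean of 2.40 over 211 probes. On the low side lies tacc (560872 to 574605), the gene of a centrosomal microtubule protein, with 1.78 ± 2.88 over 244 probes. The BaitB array fell at the same border but was still low at 570001 to 580000, with -0.54. What lies behind the drop in either array was not tested. The next drop, at 580 kb and inside CG44098 (577330 to 583797), went from 3.67 to 2.33. The third, at 120 kb, went from 7.79 to 6.75 inside cpx (110073 to 128309), the gene of complexin, which clamps synaptic vesicle fusion. The bin after that one, at 130001 to 140000, was back at 7.43.

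At the outer edge itself the gene values went up and down. CG14654 (593631 to 593967), the last gene inside, averaged 0.82 over 6 probes. The first genes beyond were higher: atms (601427 to 603161), a gene of the Paf1 transcription elongation complex, averaged 3.08, and CG14655 (603549 to 605796) averaged 3.47, with -0.55 and -0.98 for BaitB. The edge falls in a region of alternating values and not at the border of a gene.

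Isolated sites on 3R were taken from the authors' deposited peaks. Of 40964 peaks in the BaitA array, 3854 or 9.41% had an FDR of at most 0.05. Merging those within 5 kb and asking for at least 5 probes gave 211 sites on 3R beyond the stretch. The stretch itself has large merged clusters, the greatest of 51 peaks at 103085 to 191578. The distant sites were small: their median length was 310 bp with 6 probes, and 201 of the 211 were a single peak. Their means ranged from 2.84 to 7.13 with a median of 5.38. The DNA 1 to 2 kb away had a median of 0.34 and that 5 to 10 kb away 0.36, so that the typical site is a short spike. Nearer the stretch some sites stood on raised ground, with flanks of 3.79 at 757968 to 758222 and 3.47 at 1111896 to 1112116. Others there did not, with -1.08 at 857570 to 857785. With the lower level, which moved the edge to 1178 kb from the bait, all 3 would lie inside the stretch. At an FDR of at most 0.01 only 2 of the sites were left, in ohgt and in Actn3, so the set as a whole rests on the looser threshold.

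The sites thinned out with distance along 3R. There were 25.0 sites per Mb from the edge to 1 Mb of the arm and 29.0 from 1 to 2 Mb, then 11.4 from 2 to 5 Mb, 8.23 from 5 to 10 Mb, 6.31 from 10 to 20 Mb and 4.30 beyond 20 Mb. The density from 1 to 2 Mb was 6.74 times that beyond 20 Mb. With peaks of FDR at most 0.2 this was 2.55 times, and with a fixed height of 5 it was 7.90 times, both settings chosen after seeing the data. In the first Mb from their centromeric ends the other arms had 11.5 sites per Mb on 2L, 11.1 on 2R, 6.06 on 3L and 25.0 on X. From there on they thinned out less than 3R. Between 1 and 2 Mb 2L had 20.7 sites per Mb and between 10 and 20 Mb it had 20.5. The same classes gave 20.2 and 18.5 on 2R, 13.3 and 10.3 on 3L and 35.4 and 23.0 on X, with no test of the difference. The median height was 5.54 from the edge to 1 Mb and 5.22 beyond 20 Mb, and the peak threshold bounds it from below.

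The highest distant site on 3R lay 5782 kb from the bait, inside ohgt (5875017 to 5877043), the fly gene of cereblon, a substrate receptor of a ubiquitin ligase. Its 11 probes at 5875389 to 5875973 averaged 7.13 ± 0.30, with -1.66 ± 1.60 for BaitB and 2.34 ± 0.83 for BaitC. The flanks 1 to 2 kb away averaged -0.07, and the start site of ohgt lies within 1 kb. No other far site reached 7.

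The next 11 were between 6.17 and 6.64. Of these, 2 had no transcribed span of the tables within 5 kb, at 709288 to 709547 with 6.64 and at 10267624 to 10267894 with 6.56. The former had 0.94 for BaitB and 3.38 for BaitC, and its flanks 5 to 10 kb away averaged 3.30. The latter had -3.03 for BaitB and -0.16 for BaitC. Rim, a scaffold gene of the synaptic active zone, held a site at 13718434 to 13718708 with 6.43 ± 0.19, but BaitB had 3.52 there. Actn3, an alpha-actinin gene, held one at 12802090 to 12802305 with 6.41 ± 0.24, with -1.67 for BaitB and -0.02 for BaitC. The site in CG10096 (8217062 to 8217328) averaged 6.41 with 4.36 for BaitB. That at the start of CG6236 (11153295 to 11153729), next to the dorsal-ventral protease gene ea, averaged 6.31 with 3.91 for BaitB.

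Taf1, the gene of the largest subunit of the general transcription factor TFIID, held a site at 2476059 to 2476433 with 6.29 ± 0.22, and there BaitB reached 4.70. The site 2.18 kb from Sur-8, the gene of a scaffold protein of Ras signalling, at 13226955 to 13227244, averaged 6.28 ± 1.16. The site 62 bp from Octbeta2R, an octopamine receptor gene, at 8378316 to 8378585, averaged 6.23 ± 0.64 with -1.55 for BaitB. Near 1 Mb of 3R lay sites in cno (1008161 to 1008430), the gene of the junction protein Canoe, with 6.18, and in CG12590 (986221 to 986475) with 6.17. BaitC had 2.68 and 2.33 at these last 2.

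Among these 12 sites, 8 were inside a transcribed span, 11 were single peaks, and all 12 had flanks below the level 1 to 2 kb away. Spans for this count came from the tables of all 3 baits, so a BaitA peak can bring in its own gene. The count of 8 is therefore not set against a share of probes. The BaitB array was above 2.56 at 4 of the 12 sites and the BaitC array at 2, and at 6 both were below. Over all 211 sites the BaitB array was above that height at 46, which is 21.8%, where 13.0% of 300 bp windows of 3R beyond the stretch were. The BaitC array was above it at 7.58%, where 2.13% of windows were. Whether the shared slide or the probes set the overlap with BaitB was not tested.

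Sites fell inside transcribed spans more often than probes do. Using only spans named in the tables of BaitB and BaitC, so that a BaitA peak does not bring in its own gene, 135 of the 211 sites or 64.0% overlapped a span (exact 95% binomial interval 57.1 to 70.5%, counting error only). Of the probes of 3R beyond the stretch, 40.7% lay in one. The share with a start site within 1 kb was 34.1% (interval 27.8 to 40.9%) against 16.7% of probes. Spans enter those tables through peaks of the other baits, which share raised places with the BaitA array, and a site covers more bases than a probe. These shares are thus descriptions of 1 array.

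On the other arms, 1689 sites passed the same rule. X held 561, 2L 434, 2R 395, 3L 277 and chromosome 4 held 22. Peaks are called against a height set for each arm, so counts of different arms are not on 1 scale. The sites had a median of 5.19 and a median length of 325 bp, 85.1% were single peaks, and the median 1 to 2 kb away was 0.19. At an FDR of at most 0.01, 134 were left. The BaitB array was above 2.56 at 27.6% of them, against 19.3% of windows, and 58.3% lay inside a span named for the other baits, against 41.6% of probes.

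The highest site outside 3R was on 2L inside CG34124, at 4962270 to 4962534, with 7.52 ± 0.39 over 5 probes and 2.61 for BaitB. The site in Wdr81 (12020199 to 12020463) averaged 7.35 with 4.44 for BaitB, and that in Piezo (8176315 to 8176588), the gene of a mechanically gated channel, averaged 7.23 with 2.61. BaitB lies 309 kb from the site in Piezo. The fourth, in CG10383 (18692806 to 18693295), averaged 7.05 over 9 probes, and only there were both other arrays low, at -1.42 and 0.03.

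On 2R all 4 of the highest sites were at or below -0.72 for BaitB. The site at 2400763 to 2401032, in the gene with the symbol 1.28, averaged 7.43, with 2.39 for BaitC. That in dila (5711983 to 5712247), a gene needed for cilia, averaged 7.31 with 3.36 for BaitC. That in Dscam1 (3236321 to 3236637), whose many splice forms give neurons their identity, averaged 7.20 with 4.14 for BaitC. The site where gas and px overlap (18439259 to 18439474) averaged 7.00 with -0.34 for BaitC. px encodes Plexus, a protein of wing vein patterning.

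On 3L the highest site, where CG9692 lies within Lasp, an actin-binding protein gene, was at 16698451 to 16698720 and averaged 6.92, with -0.12 for BaitB. A site with no span near it, at 2011632 to 2011911, averaged 6.64, but 4.42 for BaitB. The site 1.03 kb from shd (14611206 to 14611519) averaged 6.60 ± 0.39 over 6 probes, with -2.67 and -1.05 in the other arrays and -1.64 on its flanks. shd encodes Shade, the enzyme that makes the active form of ecdysone. That in CG14073 (18798572 to 18798836) averaged 6.47, and its flanks averaged 3.16, so it is not isolated.

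On X the site where CG14443 lies within pigs (6529550 to 6529814) averaged 6.81, and the one in CG9981 (16296844 to 16297110) averaged 6.77. That in Mct1 (2094141 to 2094395) averaged 6.75 with 4.26 for BaitC. The site 1.99 kb from ase, a proneural gene of neuroblasts, at 352565 to 353001, averaged 6.58 ± 0.33 over 8 probes with 0.77 and 0.53 in the other arrays. X also had the sites of most peaks, but the height for calling a peak was set for each arm. The median site was at 4.74 on X and between 5.20 and 5.41 on 2L, 2R and 3L, so this ranking is not on 1 scale. A cluster of 7 peaks ran from 2246538 to 2266541 near CG2841, with a highest mean of 5.75. Clusters of 6 peaks lay at 6425658 to 6437925 near dx, a regulator of Notch signalling, and RpL7A, and at 7192913 to 7215056 near brk, a repressor of Dpp targets. On 2L a cluster of 5 lay at 5360316 to 5373400 near nompC, the gene of a mechanosensory channel.

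On chromosome 4 the highest site was in Syt7 (322365 to 322634), a synaptotagmin gene, with 5.97 ± 0.19 and 3.86 for BaitB. The second, at 3801 to 4192, averaged 5.41 with -0.25 and -0.12 in the other arrays, and it sits on a broad raised region described next, with flanks of 3.70. Over the 18 sites named on other arms, 14 were inside a span, 16 had flanks below the level, and at 10 both other arrays were below it. For these 14 the spans of all baits were used, so a BaitA peak can bring in its own gene.

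**Figure D3:**
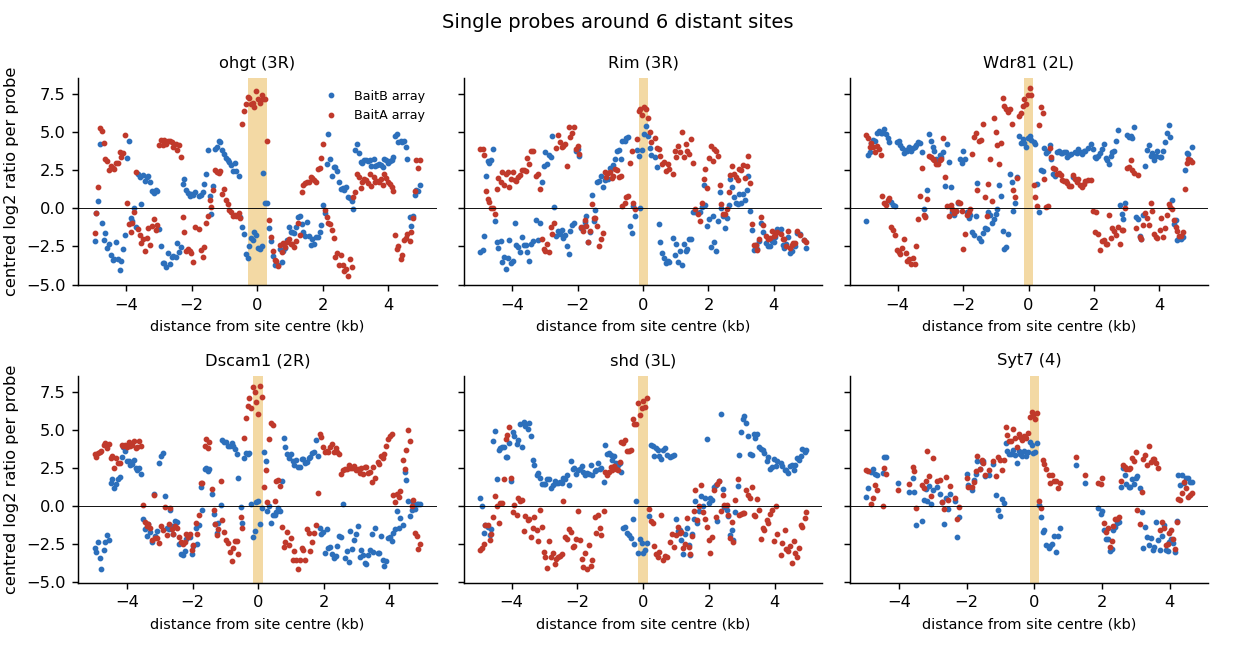
Centred log2 ratio of every probe within 5 kb of 6 sites on 5 arms, against distance from the site's centre in kb, in the BaitA and BaitB arrays; the shaded band is the site. The BaitA probes rise within about 1 kb to means between 5.97 and 7.35, the BaitB array is also high in Rim, Wdr81 and Syt7, and both arrays move in blocks of neighbouring probes.

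Most broad raised regions outside the stretch were on heterochromatic scaffolds or at the centromeric ends of arms. An exception was a run of 3 bins at 2340001 to 2370000 of 2R, with 187 probes, a mean of 3.10 and 2.05 for BaitB. The heterochromatic scaffold set of 3R averaged 2.25 ± 1.06 (SD over bins), with 0.94 ± 0.62 for BaitB and 0.64 ± 0.37 for BaitC. Of its 215 bins, 70 or 32.6% were above 2.56. The scaffold sets of the other arms were also above the array median, with 2.28 for 2L, 1.66 for 2R and 1.74 for 3L, but so they were in the BaitB array, with 1.69, 1.26 and 1.14. BaitA minus BaitB was 1.31 on the 3R set, 0.59 on the 2L set, 0.40 on the 2R set and 0.60 on the 3L set.

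**Figure D4:**
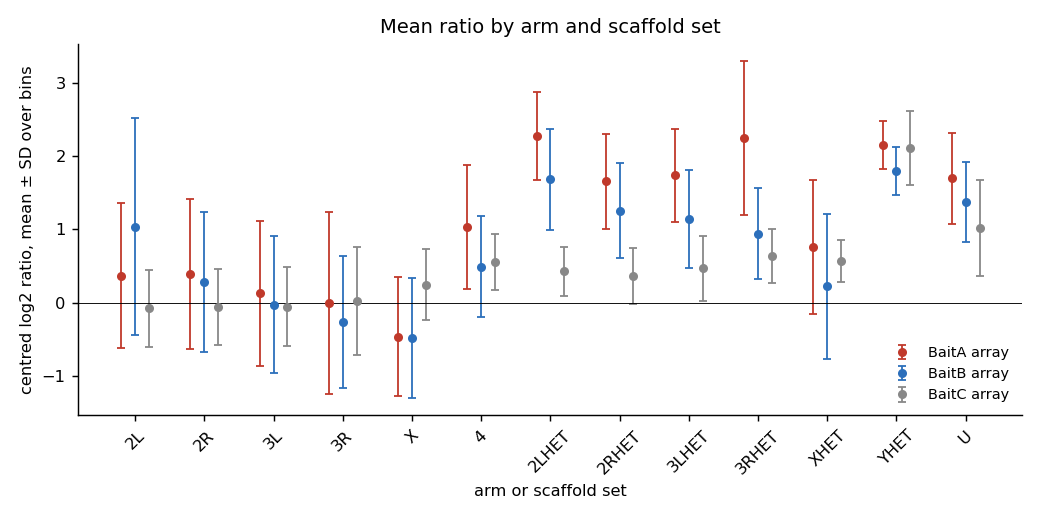
Mean centred log2 ratio of 10 kb bins by arm and by heterochromatic (HET) or unplaced (U) scaffold set in the 3 arrays, with bars for the SD over bins. The 3R scaffold set has 2.25 for BaitA and 0.94 for BaitB, and all scaffold sets lie above 0 in all 3 arrays.

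Within the 3R set the raised bins formed blocks. A first block of 37 bins, at 1600001 to 1990000 of the scaffold, averaged 3.66 ± 0.52, with 0.90 for BaitB and 0.77 for BaitC, and its highest bin was at 4.89. A second of 16 bins, at 2310001 to 2520000, averaged 3.89 ± 0.60, with 0.66 and 0.72, and ran to the last bin of the scaffold. Between them lay shorter runs above the level, of 3 bins at 2000001 to 2030000 with 2.82 and of 4 bins at 2040001 to 2100000 with 3.01. The mean of bins of the 3R arm 200 to 300 kb from the bait, 3.70, lies between those of the first and second block. A block of 3 bins on the unplaced scaffolds, at 2450001 to 2480000, averaged 3.90 ± 0.29 with 0.81 and 0.63. The files do not place the scaffolds relative to the bait, so no distance can be stated. The tables pair no gene with the 3R set.

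Chromosome 4 was raised at the start of its sequence. Its first 3 bins averaged 3.72 ± 0.45, with -0.02 ± 0.13 for BaitB and 0.65 ± 0.03 for BaitC. The next 70 kb averaged 1.88, and the 3 classes beyond 100 kb averaged 0.89 to 0.97, with an SD over bins of 0.69 to 0.75. The first 5 bins with enough probes, up to 50 kb, were all above the level. The only gene of the tables in the first 3 bins was CG17923.

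**Figure D5:**
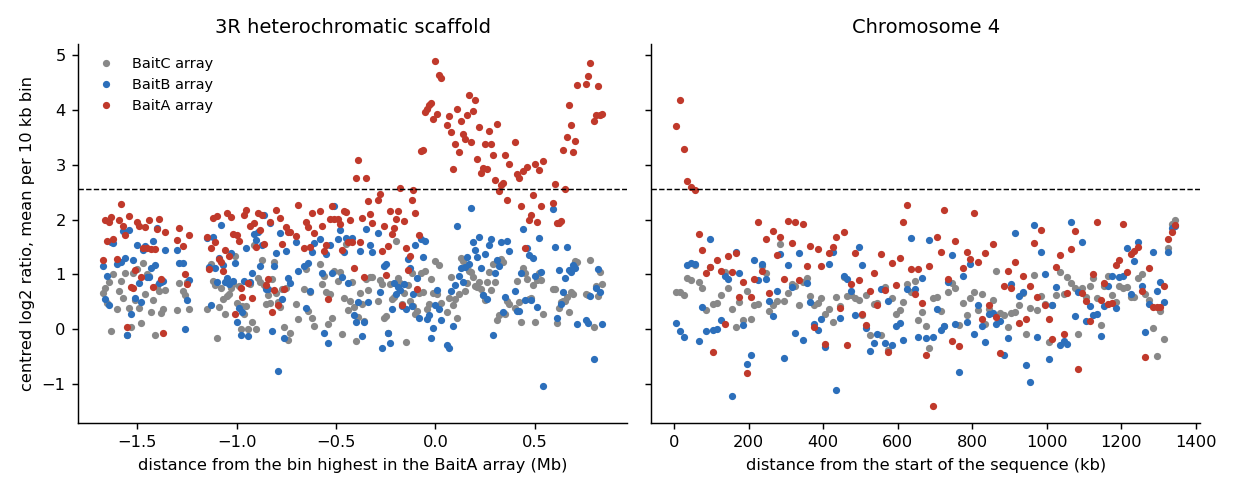
Mean centred log2 ratio per 10 kb bin in the 3 arrays along the heterochromatic scaffold of 3R, against distance in Mb from the bin highest in the BaitA array, and along chromosome 4, against distance from the start of its sequence in kb; the dashed line is the reference level of 2.56. The BaitA array alone has 2 long blocks, with lower raised bins between them, reaching 4.89 and 4.85 on the scaffold and a raised start of chromosome 4 reaching 4.18.

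The centromeric ends of the other major arms were moderately high for both BaitA and BaitB. The last 500 kb before the centromere averaged 1.99 ± 0.85 on 2L, 2.14 ± 0.60 on 2R and 1.91 ± 0.59 on 3L in the BaitA array, with 1.33, 1.52 and 1.21 for BaitB. X differed, with -0.06 for BaitA and -0.10 for BaitB. All 5 of the highest 100 kb windows on other major arms were of this kind, between 2.21 and 2.35, with 1.31 to 1.59 for BaitB. The highest, at 22700001 to 22800000 of 2L, holds CG41121 and CG17715, and that at 22400001 to 22500000 holds RpL5, CG17490 and Slmap among others. The window at 24400001 to 24500000 of 3L, with CG41458, averaged 2.33. Those at 200001 to 300000 and at 100001 to 200000 of 2R averaged 2.33 and 2.21, and the latter holds CG41449 and IntS3, a subunit gene of the Integrator complex. The last 100 kb before the telomere of 3R averaged -0.25.

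Genes that lie in or near pericentromeric heterochromatin followed their position. Of a list of 20, 10 were found in the tables, and their median was 1.90, with 1.10 for BaitB and 0.46 for BaitC. All 10 were above the median of all genes, 0.17. Of all 12042 genes 7.93% were above the level, and the counts in this list and the lists below are near that share. In this list 1 was above the level, the ribosomal protein gene RpL5 with 2.88. The next were Gprk1, a kinase gene for G protein-coupled receptors, with 2.16 and cta, the gene of the G protein subunit Concertina, with 2.16. The lowest were p120ctn, a cadherin-binding protein gene, with 1.41, Nipped-A, a gene of the SAGA and Tip60 complexes, with 1.52, and the cohesin loader gene Nipped-B with 1.73. Genes of blood cells, the lineage from which S2 cells are thought to derive, had a median of -0.17 over 16, with none above the level. The highest were Pvr with 1.36, ush with 0.83 and Sr-CI with 0.65, and the lowest eater with -2.98, Fer2LCH with -1.57 and srp with -0.84. Neuronal genes had a median of -0.15 over 15, also with none above. They ran from onecut, on chromosome 4, with 1.66, VGlut with 0.99 and nSyb with 0.69 down to elav with -0.78, Sh with -0.99 and futsch with -1.09.

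The share of bins above the level was 2.77% on 3R, stretch included, 1.36% on 2L, 2.24% on 2R, 0.53% on 3L and 3.70% on chromosome 4, and 0 of 2215 bins on X. The level is a percentile of the bins of 2L, 2R, 3L and X, so the share of these 4 arms together was set in advance. On 3R, 56 of the 77 bins above the level were in the stretch, which the same level bounded. The highest single bins away from the bait's arm and the centromeres were sparse. The bin at 19840001 to 19850000 of 3L, with Papss, the gene of a sulphate donor synthetase, averaged 4.69 with -1.87 for BaitB but held only 28 probes. That at 14640001 to 14650000 of 2L, with osp, the outspread gene, averaged 3.71 over 49 probes with 0.42 for BaitB. The locus of BaitB was not raised in the BaitA array: the mean was -1.41 over its 14 probes and 1.01 over the 737 probes within 20 kb.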

How the data were processed

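The values analysed are log2 ratios per probe from the deposited table, 4C product (Cy5) over DpnII-cut, unligated DNA (Cy3), per the labels. Base 2 and this direction are assumed, the latter because each array is high at its own bait. How the ratios were scaled before deposit is unknown. Their medians as deposited were -0.16, -0.14 and -0.02 for BaitA, BaitB and BaitC, and each array was centred on its own. Because the product comes from 2 rounds of inverse PCR, per the labels' protocols, a ratio is not a contact frequency.

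Peaks were called by the authors with NimbleScan on each array, per the file headers. The deposited peak score served only to read peak lists. The deposited FDR, used like a q-value, was computed within each array. Deposited tables pair peaks of FDR at most 0.2 with transcripts within 5 kb, and give no exons. Coordinates are the files' own. The build is not named, and the 3R length of 27905053 bp in the headers is that of Release 5. Symbols came from a RefSeq table of Release 6, in which 16169 of 17767 accessions matched.

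Probes were averaged over 10 kb bins of at least 20 probes (pandas 2.3.3, numpy 2.4.6). The rules were tested on simulated data with independent noise at each probe, a sharp step and planted peaks. The measured ratios fall gradually and move in blocks of neighbouring probes. That test therefore checks the working of the rules and not the place of a soft edge. The text names, in the stretch, the genes of the 12 highest and 6 lowest span means, those at the bait, the edge and the 3 largest drops; the 12 highest far sites on 3R; the 4 highest sites on each of 2L, 2R, 3L and X and 2 on chromosome 4; the 5 highest windows of 100 kb; and the 3 highest and 3 lowest of each gene list. The members, the lists and the rules were chosen with earlier results of these data known. Other bin sizes, levels, run lengths, FDR thresholds, merge distances and centrings were tried. No value column was without a sample. No genome was used, so no sequence is shown.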

Additional observations from a re-analysis of the deposited data

Results flagged for a closer look

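In 3 contrasts the BaitA array and another array pointed opposite ways, while the remaining array had the sign of BaitA. Each array is 1 sample, so the differences were not tested. The mean over bins of X minus that of 2L, 2R and 3L was -0.757 for BaitA, -0.908 for BaitB and 0.309 for BaitC. The first 30 kb of chromosome 4 minus the remainder of that chromosome was 2.76 for BaitA, -0.524 for BaitB and 0.103 for BaitC. The scaffold set of 3R minus those of 2L, 2R and 3L was 0.524 for BaitA, -0.284 for BaitB and 0.222 for BaitC.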

How the results depend on the processing

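The outer edge, 508 kb from the bait, moved to 1178 kb with the 95th percentile as the level. It moved to 1468 kb with the level from 3R beyond 10 Mb and to 788 kb with a run of 10 bins. With 20 kb bins it was at 708 kb, which is within 1.5 times but still a large shift. It was at 513 kb with 5 kb bins, 508 kb with a run of 3 and 518 kb with the median over probes. The bins within 20 kb averaged 8.26 when centred on the arms without the bait and 8.52 as BaitA minus BaitB, scaled by SD, and that difference gave 4.66 at 100 to 150 kb and 1.93 at 500 to 600 kb, where the median over probes gave 2.61. An FDR of at most 0.01 left 2 sites on 3R and 134 on the other arms, and one of at most 0.2 gave 828 and 4081. The share of bins above the level on X was 0.0686% in 5 kb bins and 0.0451% with medians, and on chromosome 4 it was 2.26% in 5 kb bins. At named sites 53 of 60 alternatives moved the mean by less than its SD over probes, but this count is no check of the sites. A median cannot lie more than 1 SD from its mean. The other centring added the same constant to every site, so it moved only those with a small SD. The causes were not tested. No paired analysis was possible because there is 1 array for each bait, and no replicate could be left out. Depth is not a measure for arrays, and a site of 5 probes is the smallest read here.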
